A study of Mus musculus with 6 samples.

Results

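The mitochondrial carrier family, whose genes are named Slc25a followed by a number, was examined in the epididymal fat of mice with and without a deletion of Tfrc in adipocytes. The members were all genes of the deposited expression table whose name starts with Slc25a, 48 of 35275 genes. A gene under 0.5 FPKM (fragments scaled to 1 kilobase of gene and 1000000 reads) in 4 or more of the 6 samples was taken as not measured, which left 41 measured members and 7 that were not. RNA sequencing had been done on whole epididymal fat pads (visceral white fat) from male C57BL/6 mice. The 3 control samples carried the genotype Tfrcfl/fl, in which loxP sites flank part of Tfrc, and the 3 knockout samples the genotype TfrcAKO, known as a deletion of the same floxed gene in adipocytes. The promoter that drove the recombinase is not given in the sources used here, and cells of the depot other than adipocytes would keep the gene. Both groups were fed a diet with 60% fat for 10 weeks from 2 months of age and were sampled at 4.5 months. The comparison asked which carrier mRNAs differ in the depot when adipocytes lack the receptor that takes up transferrin-bound iron.

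Most members of this family sit in the inner mitochondrial membrane and exchange 1 solute of the matrix for 1 of the cytosol. They pass ADP, ATP, phosphate, citrate, malate, acylcarnitines, amino acids, nucleotides, cofactors and iron, so that they link respiration, fat synthesis and iron use to the rest of the cell. In white adipocytes the export of citrate feeds fatty acid synthesis, and the import of acylcarnitines feeds fatty acid oxidation. The mitoferrins, Slc25a37 and Slc25a28, bring iron into the matrix, where heme and iron-sulfur clusters are made.

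The samples held 25252839 to 30650624 reads assigned to genes, and 3 reads on a gene of 2 kb corresponded to 0.0489 to 0.0594 FPKM. Tfrc itself was at 11.1, 13.2 and 11.9 FPKM in controls 1, 2 and 3 and at 7.10, 8.27 and 9.50 FPKM in knockouts 1, 2 and 3, a fall of 0.52 ± 0.12 on the log2(FPKM + 0.5) scale (SE, limma adjusted p = 0.0147, or 0.0595 without control 2 and 0.0525 without control 3). Adipocyte markers were present in every sample (Adipoq at 326 FPKM or more), Ucp1 of brown adipocytes was at or under 0.167 FPKM, and the summed level of 5 epididymis markers reached 2.04 FPKM in knockout 1 and 0.407 in knockout 2. The levels of cell type markers differed between the groups. The summed level of 9 mature adipocyte markers was 10080 to 13287 FPKM in control and 21216 to 27588 in knockout samples, and that of 8 macrophage markers was 4094 to 4948 and 900.2 to 2088. Summed endothelial markers (5 genes) were at 83.0 to 100.5 and 186.6 to 283.0 FPKM, those of fibroblasts and progenitors (6 genes) at 1934 to 2170 and 968.7 to 1618, and those of mesothelium (4 genes) at 52.5 to 55.2 and 83.8 to 103.6. Such sums weigh abundant genes most, such as Fabp4 for adipocytes and Lyz2 for macrophages. In the fibroblast list only the collagens Col1a1 and Col3a1 were called lower. Pdgfra, Dcn and Pi16 overlapped between the groups, and Dpp4 was higher in each knockout sample (0.35, limma adjusted p = 0.0546). Of the measured markers of these 5 cell types 7 of 9, 0 of 8, 5 of 5, 0 of 6 and 3 of 4 rose and 0, 7, 0, 2 and 0 fell. Of all genes tested 21.9% rose and 21.6% fell. None of 7 lymphocyte markers was called by limma (1 at an unadjusted p under 0.05, and 1 called by limma-voom), and of 3 measured brown fat markers 2 rose and 1 fell. In whole tissue, fewer cells of a type and less RNA per cell cannot be told apart, and the part of this shift in the carrier values below was not tested. Knockout replicate 3 stood apart: it had the highest adipocyte and the lowest macrophage sum, and its correlation across genes with the other knockout samples was 0.975 and 0.978, against 0.990 between those.

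Of the 41 measured carriers 16 rose and 7 fell in the knockout at a limma adjusted p under 0.05. Those are 39.0% and 17.1% of the measured members, beside 21.9% and 21.6% of all 14383 genes tested, of which 43.5% were called in either direction. In log2 units the carriers had a median change of 0.27 and all genes tested one of −0.03. Knockout and control values did not overlap for 32 carriers, 22 of them higher in the knockout and 10 lower, and all 23 called carriers were among these. Groups without overlap were found for 60.1% of all genes tested (29.1% higher in the knockout and 31.0% lower). The largest changes upward were those of Slc25a23, Slc25a35, Slc25a25 and Slc25a33, each above 1 in log2 units, and the largest downward those of Slc25a13 and Slc25a43. In 22 of the 23 called carriers knockout 3 lay farther from the control mean than both other knockout samples, the exception being Slc25a42. Without that library 16 rose and 6 fell, beside 20.9% and 20.5% of all genes tested (41.4% in either direction). Without control 2 the counts were 11 and 3, beside 14.5% and 9.07% of all genes tested (23.6% in either direction). Without control 3 they were 12 and 4, beside 13.5% and 10.7% (24.2%).

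**Figure D1:**
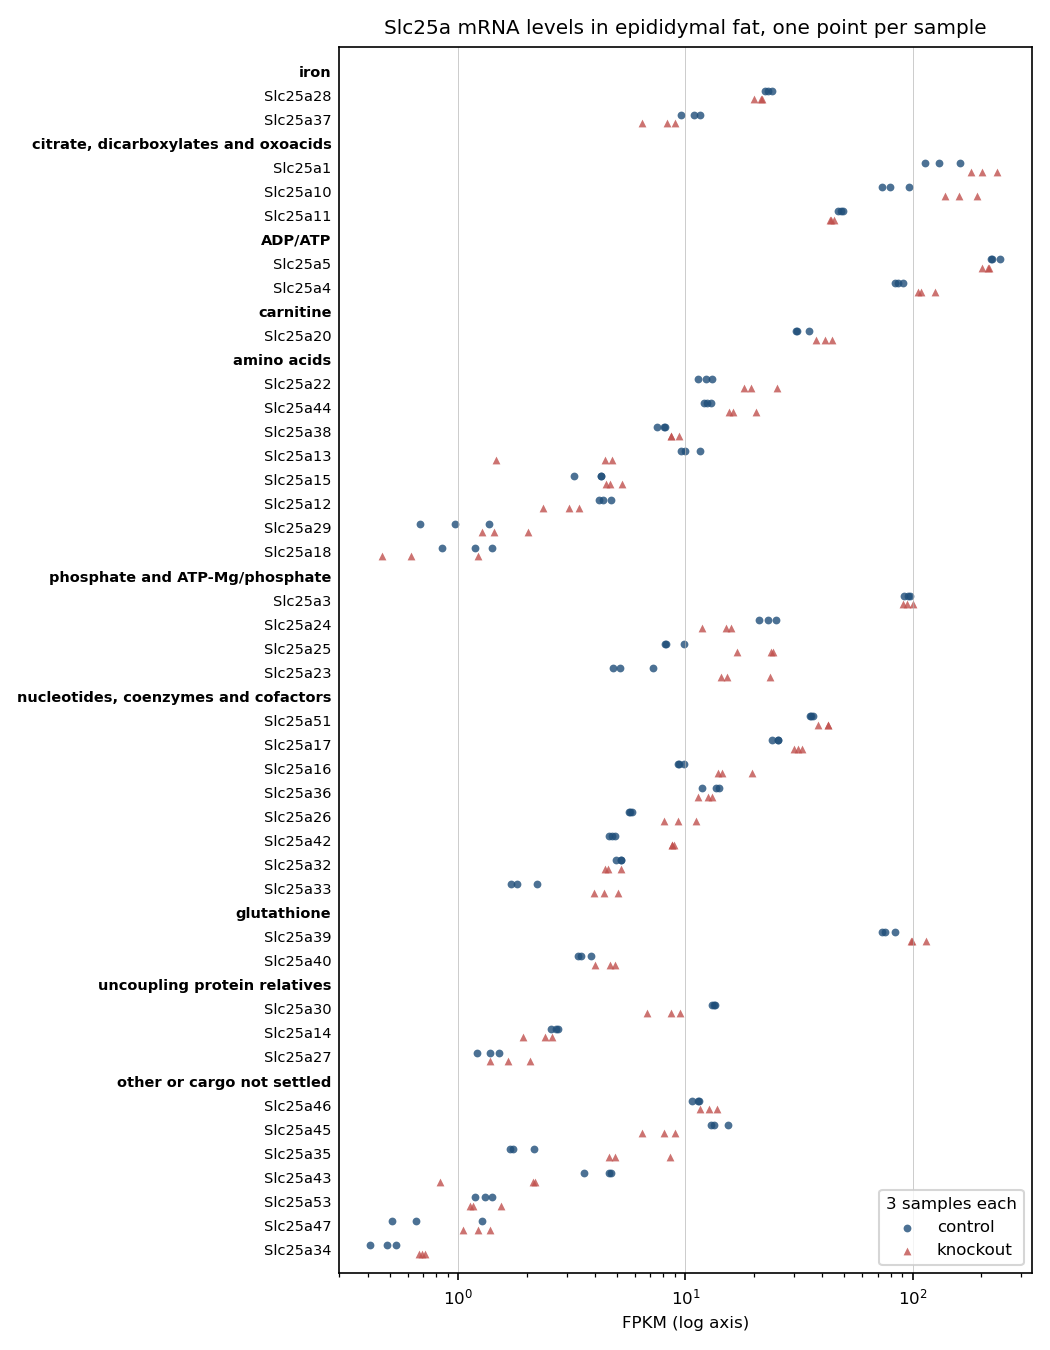
Levels of 40 of the measured Slc25a mRNAs, grouped by cargo, on a log axis of FPKM; each point is 1 sample (control in blue circles, knockout in red triangles, 3 of each). Levels run from 0.411 FPKM (Slc25a34) to 243 FPKM (Slc25a5), and the groups are apart for 31 of the carriers drawn.

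The summed level of the genes named Slc25a was higher in each knockout sample than in any control sample. Over all 48 genes the sum was 1151, 1043 and 1049 FPKM in controls 1, 2 and 3 and 1240, 1303 and 1426 FPKM in knockouts 1, 2 and 3. The groups did not overlap (exact permutation test, two-sided p = 0.1, the smallest that 3 against 3 samples can give). With the uncoupling proteins Ucp1, Ucp2 and Ucp3 added, which belong to the family under other names, the sum was 1383 to 1488.5 FPKM in control and 1475 to 1542 FPKM in knockout samples, and the groups overlapped. Among the genes named Slc25a the same 6 were the most abundant in both groups, in a different order. In control tissue the order was Slc25a5, Slc25a1, Slc25a3, Slc25a4, Slc25a10 and Slc25a39, and in the knockout it was Slc25a5, Slc25a1, Slc25a10, Slc25a4, Slc25a39 and Slc25a3. Both orders depend on the deposited gene lengths, which differ unevenly from the annotated exon lengths of GENCODE M21. Slc25a10 has 2023 deposited and 3455 annotated bases, and Slc25a3 has 4039 and 5550. In control tissue Slc25a4 (83.4 to 90.8 FPKM), Slc25a10 (73.0 to 96.3) and Slc25a39 (73.2 to 83.7) overlapped as neighbours. In the knockout every pair of neighbours in this order overlapped except Slc25a10 (138 to 191) with Slc25a4 (106 to 125). There the ranges of Slc25a5 (201 to 216) and Slc25a1 (180 to 234) overlapped, and in control samples those of Slc25a5 (221 to 243) and Slc25a1 (113 to 161) did not.

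Of the iron carriers, Slc25a37 fell and Slc25a28 was not called. Slc25a37, mitoferrin 1 (ENSMUSG00000034248, mm10 chromosome 14, 69241848 to 69285112, minus strand), is the form known from developing red cells. It was at 9.58, 11.6 and 10.9 FPKM in controls 1, 2 and 3 and at 9.02, 8.32 and 6.42 FPKM in knockouts 1, 2 and 3. Each knockout value lay under every control value, though knockout 1 was close to control 1. The change was −0.42 ± 0.14 (SE, limma adjusted p = 0.0446). It was the weakest call among the carriers: the adjusted p was 0.0548, 0.141 and 0.124 without control 1, 2 or 3, and 0.0704 and 0.0529 without knockout 2 or 3. Slc25a28, mitoferrin 2, the form made in most tissues (ENSMUSG00000040414, chromosome 19, 43663822 to 43674881, minus strand), was at 22.4, 24.0 and 23.1 FPKM in control and at 21.7, 20.04 and 21.5 FPKM in knockout samples. Its groups also did not overlap, with a change of −0.14 ± 0.07, a 95% interval from −0.29 to 0.02 and a limma adjusted p of 0.142. Per length of gene as deposited (1514 bases for Slc25a28 and 5927 for Slc25a37), Slc25a28 was the more abundant of the pair in every sample. Their annotated exons cover 3749 and 6021 bases in GENCODE M21, so this order depends on the lengths used.

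Around the mitoferrins, a list of 9 genes of mitochondrial iron use held 8 measured members, of which 3 rose and 2 fell (median 0.19). The shares over all genes tested were 21.9% and 21.6%. Iscu, the scaffold on which iron-sulfur clusters are built, went from 66.9 ± 4.31 to 110 ± 4.63 FPKM (SD, n = 3 per group) and rose by 0.71 ± 0.08 on the log2 scale (SE, limma adjusted p = 0.00370). Fth1, the ferritin heavy chain of the cytosol, fell by 0.85 ± 0.18 (SE, limma adjusted p = 0.0108). The scaffold and the ferritin chain thus moved in opposite directions in the same samples. The mitochondrial ferritin Ftmt was listed at 0 FPKM in all 6 samples.

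Among the carriers of citrate, dicarboxylates and oxoacids, Slc25a1 and Slc25a10 rose while Slc25a11 did not pass the test. Slc25a10 exchanges malate and succinate for phosphate (ENSMUSG00000025792, chromosome 11, 120491840 to 120499187, plus strand). It was at 96.3, 73.0 and 79.0 FPKM in controls 1, 2 and 3 and at 138, 160 and 191 FPKM in knockouts 1, 2 and 3. The group means were 82.8 ± 12.1 and 163 ± 26.5 FPKM (SD, n = 3 each), and the change was 0.97 ± 0.15 (SE, limma adjusted p = 0.00556). The lowest knockout value stood well above the highest control value. Slc25a1, the citrate carrier that exports citrate for fatty acid synthesis (ENSMUSG00000003528, chromosome 16, 17925211 to 17928219, minus strand), was at 161, 113 and 131 FPKM in control and at 180, 201 and 234 FPKM in knockout samples. Control replicate 1 was the highest of its group and came within reach of knockout 1. The change was 0.61 ± 0.16 (SE, limma adjusted p = 0.0222), and the adjusted p was 0.0770, 0.0768 and 0.0546 without control 2, control 3 or knockout 2. Slc25a11, the exchanger of oxoglutarate and malate, was at 49.1, 48.3 and 46.7 FPKM in control and at 43.1, 43.7 and 45.2 FPKM in knockout samples. Its groups lay apart by a small step downward (−0.13 ± 0.06, 95% interval −0.28 to 0.03, limma adjusted p = 0.153). The fourth gene of this class, Slc25a21, which carries oxoadipate, was at or under 0.0726 FPKM and not measured.

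Promoter sequence is shown for 3 of the called carriers whose 250 bases before the start hold a match to a short motif. Slc25a33 and Slc25a20 were also called and hold a match, and their windows are not printed. RefSeq promoters (GRCm38.p6) were at hand for 32 of the 41 measured carriers and for 10114 measured genes in all. The E-box CACGTG, read on both strands, was found for 6 of the 32 (Slc25a1, Slc25a13, Slc25a14, Slc25a15, Slc25a33 and Slc25a36) and for 9.76% of the measured genes. The cAMP response element TGACGTCA was found for 2 (Slc25a25 and Slc25a36) and for 2.98% of genes, and the ETS site CCGGAAGT for 1 (Slc25a20) and for 6.39%. The ERR element TCAAGGTCA and the amino acid response element TGATGCAA matched in none of the 32 windows and in 0.287% and 0.672% of the genes. Single longer forms of the NRF1 site (10 letters), the DR1 element (13 letters) and the sterol response element (10 letters) also matched in none of the 32, and in 1.84%, 0.0297% and 0.0494% of the genes. No 2 matches overlapped in these windows. Of the 6 carriers with an E-box, 2 rose, 1 fell and 3 were not called, so carriers with the same match moved in both directions. A match is a description of the letters and not of a bound factor. Each window is printed 5′ to 3′ on the strand of the gene, ending at the base before the start, with the match in capitals. The E-box lies 234 to 239 bases before the start of Slc25a1 (chr16:17928220-17928469, minus strand) and 120 to 125 bases before that of Slc25a13 (chr6:6217174-6217423, minus strand), which is described with the amino acid carriers. The response element lies 143 to 150 bases before 1 of the 3 starts of Slc25a25 in the table (chr2:32424067-32424316, minus strand).
Slc25a1: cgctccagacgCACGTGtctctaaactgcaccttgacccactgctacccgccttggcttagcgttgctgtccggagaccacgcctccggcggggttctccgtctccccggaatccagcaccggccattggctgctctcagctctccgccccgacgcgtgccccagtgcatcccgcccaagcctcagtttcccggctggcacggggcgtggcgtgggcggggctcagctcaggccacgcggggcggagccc
Slc25a13: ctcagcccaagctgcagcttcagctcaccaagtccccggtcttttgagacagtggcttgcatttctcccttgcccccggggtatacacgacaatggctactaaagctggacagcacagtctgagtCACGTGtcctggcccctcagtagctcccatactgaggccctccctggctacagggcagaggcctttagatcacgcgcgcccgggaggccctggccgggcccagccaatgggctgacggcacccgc
Slc25a25: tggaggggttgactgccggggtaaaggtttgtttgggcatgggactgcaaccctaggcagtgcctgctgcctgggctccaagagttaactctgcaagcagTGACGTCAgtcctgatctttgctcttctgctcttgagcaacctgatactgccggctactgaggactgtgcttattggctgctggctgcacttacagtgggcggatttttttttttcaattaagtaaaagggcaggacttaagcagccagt

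Enzymes that work beside these carriers moved with them in part. Of 9 genes of citrate and malate metabolism 5 rose and 1 fell, with a median of 0.63. Of all genes tested 21.9% rose and 21.6% fell. Pcx, pyruvate carboxylase of the matrix, went from a mean of 116 ± 24.9 to one of 352 ± 129 FPKM (SD, n = 3 each) and rose by 1.56 ± 0.27 (SE, limma adjusted p = 0.00679). Mdh1, the cytosolic malate dehydrogenase, rose by 0.71 ± 0.12 (SE, limma adjusted p = 0.00624). Acly, which splits exported citrate in the cytosol, was at 79.7, 63.8 and 74.6 FPKM in control and at 83.8, 91.6 and 186 FPKM in knockout samples, and with this spread it was not called (limma adjusted p = 0.124).

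The ADP/ATP carriers differed from each other. Slc25a4, the translocase form typical of heart and muscle (ENSMUSG00000031633, chromosome 8, 46206797 to 46211284, minus strand), was at 90.8, 86.0 and 83.4 FPKM in controls 1, 2 and 3 and at 106, 108 and 125 FPKM in knockouts 1, 2 and 3. All 3 knockout values were above all control values, and the change was 0.38 ± 0.09 (SE, limma adjusted p = 0.0182, or 0.0668 without control 2 and 0.0764 without control 3). Slc25a5, the form of proliferating and most other cells (ENSMUSG00000016319, chromosome X, 36795651 to 36798807, plus strand), was at 243, 221 and 223 FPKM in control and at 215, 216 and 201 FPKM in knockout samples. By the deposited gene lengths it was the most abundant gene named Slc25a in both groups, and it had a change of −0.12 ± 0.09 (95% interval −0.33 to 0.09, limma adjusted p = 0.308). As a share of both forms, Slc25a4 made up 27.2%, 28.0% and 27.3% in control and 33.0%, 33.4% and 38.3% in knockout samples. Slc25a5 has many processed copies, and 33.8% of the 50-base words of its annotated transcripts also occur in other genes, so its level carries that uncertainty. Slc25a31, the form of germ cells, was at or under 0.210 FPKM and not measured.

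Slc25a20, the carnitine-acylcarnitine carrier and only member of its class (ENSMUSG00000032602, chromosome 9, 108662098 to 108684641, plus strand), rose. It was at 34.8, 30.7 and 30.9 FPKM in controls 1, 2 and 3 and at 37.5, 41.0 and 44.2 FPKM in knockouts 1, 2 and 3. The groups did not overlap, with a change of 0.34 ± 0.09 (SE, limma adjusted p = 0.0224, which was 0.0829, 0.0846 and 0.0581 without control 2, control 3 or knockout 2). In the carnitine system around it, 3 of 4 measured genes rose and 1 fell, beside 21.9% and 21.6% of all genes tested. Cpt2, which turns acylcarnitine back into acyl-CoA in the matrix, rose by 0.90 ± 0.13 and the plasma membrane carnitine transporter Slc22a5 by 0.41 ± 0.08 (limma adjusted p = 0.00485 and 0.00880). Cpt1a, which makes acylcarnitine at the outer membrane, was at 63.5, 69.7 and 65.5 FPKM in control and at 49.0, 47.4 and 34.8 FPKM in knockout samples. It fell by 0.61 ± 0.14 (SE, limma adjusted p = 0.0137, or 0.0571 and 0.0501 without control 2 or 3). The enzyme before the carrier and the enzyme after it therefore changed in opposite directions. The muscle form Cpt1b was under 0.206 FPKM in every sample and not measured.

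Of 10 amino acid carriers 8 were measured, and 2 rose and 2 fell (25% each, beside 21.9% and 21.6% of all genes tested). Slc25a22, a glutamate carrier, was at 13.1, 12.3 and 11.3 FPKM in controls 1, 2 and 3 and at 18.1, 19.4 and 25.2 FPKM in knockouts 1, 2 and 3, a rise of 0.73 ± 0.13 (SE, limma adjusted p = 0.00751). Slc25a44, which takes up branched-chain amino acids, was at 13.0, 12.0 and 12.4 FPKM in control and at 15.5, 16.1 and 20.5 FPKM in knockout samples. It rose by 0.45 ± 0.11 (SE, limma adjusted p = 0.0190, or 0.0717 and 0.0653 without control 2 or 3). Both carriers were highest in knockout 3.

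The carriers that fell were both aspartate-glutamate exchangers, which move reducing power into mitochondria as part of the malate-aspartate shuttle. Slc25a13, citrin (ENSMUSG00000015112, chromosome 6, 6041218 to 6217173, minus strand; its promoter is printed above), was at 9.55, 11.6 and 9.91 FPKM in control and at 4.43, 4.76 and 1.47 FPKM in knockouts 1, 2 and 3. Knockout replicate 3 was lowest by far, and the other knockout samples were still under every control sample. The change was −1.54 ± 0.36 (SE, limma adjusted p = 0.0160), and −1.09 without knockout 3, where the adjusted p was 0.000551. The adjusted p was 0.0630 without control 2 and 0.0526 without control 3. Slc25a12, aralar, had group means of 4.40 ± 0.290 and 2.94 ± 0.536 FPKM (SD, n = 3 each) and fell by 0.52 ± 0.13 (SE, limma adjusted p = 0.0213, or 0.0806 and 0.0673 without control 2 or 3). The enzymes of the same shuttle were mixed. The malate dehydrogenases Mdh1 and Mdh2 rose by 0.71 and 0.58 (limma adjusted p = 0.00624 and 0.0132, the latter 0.0575 and 0.0551 without control 2 or 3). Of the aspartate aminotransferases, Got2 fell by 0.36 (limma adjusted p = 0.0207, or 0.0538, 0.0524 and 0.0590 without control 2, control 3 or knockout 2) and Got1 was not called (−0.46, limma adjusted p = 0.0833, or 0.0359 without knockout 3).

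Among the amino acid carriers that did not pass the test, Slc25a38, the glycine carrier needed for heme synthesis, was at 7.50, 8.02 and 8.13 FPKM in control and at 8.67, 8.67 and 9.33 FPKM in knockout samples (0.16 ± 0.07, limma adjusted p = 0.108). Slc25a15 (ornithine), Slc25a29 (basic amino acids) and Slc25a18 (glutamate) had changes of 0.27, 0.47 and −0.41 with limma adjusted p between 0.116 and 0.217. Slc25a18 passed the test with knockout 2 left out, at an adjusted p of 0.0451, and its value rested on as few as 16 reads in a sample. Slc25a2 and Slc25a48, also placed in this class, were at or under 0.218 FPKM and not measured.

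The phosphate carrier Slc25a3 was not called, while the ATP-Mg/phosphate carriers moved in both directions. Slc25a3, which supplies phosphate for ATP synthesis, was at 94.997, 97.7 and 91.8 FPKM in controls 1, 2 and 3 and at 93.9, 90.7 and 100.4 FPKM in knockouts 1, 2 and 3. The groups overlapped, and the 95% interval of the change ran from −0.18 to 0.19. Slc25a23, Slc25a24 and Slc25a25 bind calcium and exchange ATP-Mg for phosphate, which sets the adenine nucleotide content of the matrix. Slc25a23 (ENSMUSG00000046329, chromosome 17, 57043711 to 57059863, minus strand) was at 7.22, 5.13 and 4.82 FPKM in control and at 15.2, 14.3 and 23.5 FPKM in knockout samples. It had the largest rise among the genes named Slc25a, 1.53 ± 0.22 (SE, limma adjusted p = 0.00462), and 1.31 without knockout 3. Slc25a25 (ENSMUSG00000026819, chromosome 2, 32414487 to 32451445, minus strand; 1 of its promoters is printed above) was at 9.82, 8.15 and 8.17 FPKM in control and at 16.8, 23.7 and 24.2 FPKM in knockout samples. It rose by 1.25 ± 0.16 (SE, limma adjusted p = 0.00384), and a value per gene does not show which of its starts was used. Slc25a24 went the other way, from 21.1, 25.0 and 23.2 FPKM in control to 15.9, 15.1 and 11.8 FPKM in knockout samples, and fell by 0.68 ± 0.12 (SE, limma adjusted p = 0.00784).

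Per length of gene as deposited, the most abundant of these 3 isoforms was not the same in the groups. Slc25a24 made up 55.3%, 65.3% and 64.1% of their summed FPKM in controls 1, 2 and 3 and 33.1%, 28.5% and 19.9% in knockouts 1, 2 and 3. The sum itself was 36.1 to 38.3 FPKM in control and 47.9 to 59.5 FPKM in knockout samples. Slc25a24 was the most abundant of the isoforms in each control sample and Slc25a25 in each knockout sample. The deposited lengths of Slc25a24, Slc25a25 and Slc25a23 are 3431, 3529 and 3362 bases. Their annotated exons cover 3431, 7862 and 5294 bases in GENCODE M21. The shares and the order in knockout samples therefore depend on the lengths used. No read was assigned to Slc25a41, the remaining gene of the class, in any sample, which allows up to 0.0799 to 0.0970 FPKM.

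**Figure D2:**
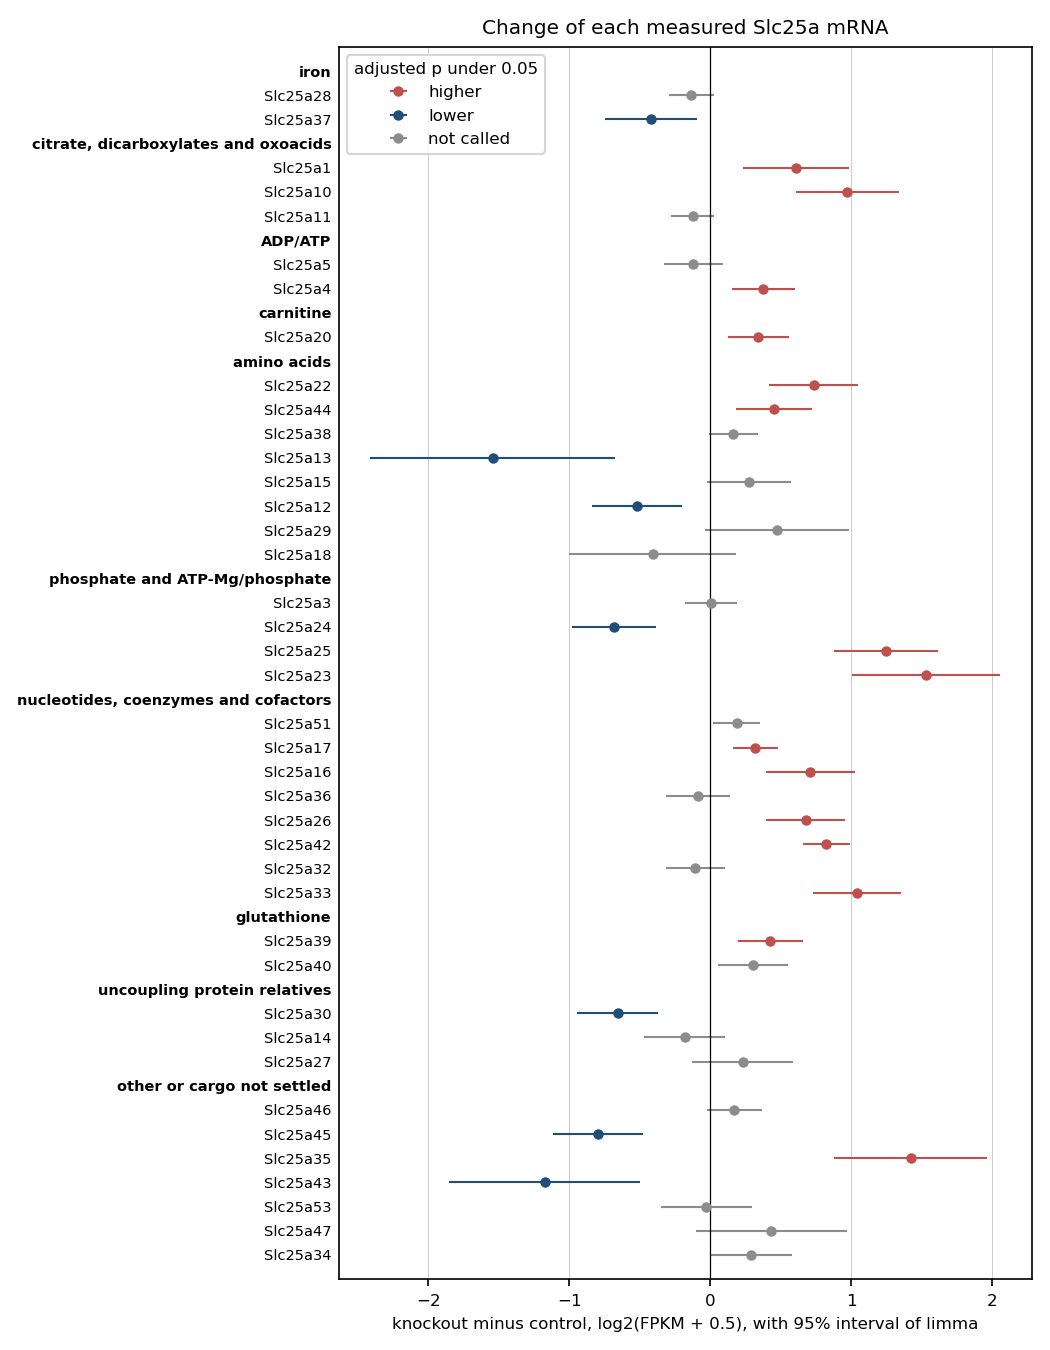
Change of 40 of the measured carriers, knockout minus control on the log2(FPKM + 0.5) scale, with the 95% interval of limma; red points rose, blue points fell and grey points did not pass an adjusted p of 0.05. Slc25a23, at 1.53, and Slc25a13, at −1.54, are the extremes of those drawn.

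Carriers of nucleotides, coenzymes and cofactors were the class with the most measured members: 6 of 9 rose, and the other 3 did not pass the test. The called share was 66.7%, as in the citrate class (66.7% of 3 measured genes). It was under that of the phosphate class (75% of 4) and of the carnitine class (100% of 1). Of all genes tested 43.5% were called and 21.9% rose. Slc25a33, which carries pyrimidine nucleotides (ENSMUSG00000028982, chromosome 4, 149744036 to 149774277, minus strand), was at 2.22, 1.81 and 1.71 FPKM in controls 1, 2 and 3 and at 3.94, 4.40 and 5.06 FPKM in knockouts 1, 2 and 3. It rose by 1.04 ± 0.13 (SE, limma adjusted p = 0.00377), with 89 to 241 reads in a sample. Exons of Gm13068 on the other strand overlap 14.9% of its exonic bases. With the strand setting not given, how reads of the overlap were assigned is not known. Slc25a16, linked with coenzyme A transport, was at 9.86, 9.28 and 9.37 FPKM in control and at 13.95, 14.5 and 19.6 FPKM in knockout samples, a rise of 0.71 ± 0.13 (SE, limma adjusted p = 0.00815). In both of these the knockout values lay above the control values.

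Slc25a42, the other carrier of coenzyme A (ENSMUSG00000002346, chromosome 8, 70184340 to 70212305, minus strand), had the smallest adjusted p among the genes named Slc25a. Its means were 4.75 ± 0.136 in control and 8.78 ± 0.137 FPKM in knockout tissue (SD, n = 3 each), a rise of 0.82 ± 0.07 (SE, limma adjusted p = 0.00338). Here knockout 3 did not stand apart from the other knockout samples. Slc25a26, the importer of the methyl donor S-adenosylmethionine, rose by 0.68 ± 0.12 from a mean of 5.71 FPKM (SE, limma adjusted p = 0.00686). Slc25a17, a carrier of the peroxisome and not of mitochondria, was at 25.5, 24.0 and 25.5 FPKM in control and at 31.4, 30.0 and 32.6 FPKM in knockout samples, a rise of 0.32 ± 0.07 (SE, limma adjusted p = 0.0109). Slc25a51, the NAD carrier, was at 35.8, 36.4 and 35.2 FPKM in control and at 38.1, 42.3 and 42.2 FPKM in knockout samples. Its groups were apart, but the change of 0.19 ± 0.07 had a limma adjusted p of 0.0690, or 0.0452 without knockout 1. Slc25a36, the second pyrimidine nucleotide carrier, and Slc25a32, which carries folate or FAD, had changes of −0.09 and −0.11 with groups that overlapped (limma adjusted p = 0.476 and 0.369).

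Both glutathione carriers had higher knockout values, and 1 of them was called. Slc25a39, the mitochondrial glutathione importer (ENSMUSG00000018677, chromosome 11, 102402985 to 102407946, minus strand), was at 83.7, 73.2 and 75.1 FPKM in controls 1, 2 and 3 and at 98.3, 99.7 and 115 FPKM in knockouts 1, 2 and 3. It rose by 0.43 ± 0.10 (SE, limma adjusted p = 0.0140, or 0.0603 and 0.0605 without control 2 or 3). Slc25a40, its close relative, was at 3.84, 3.37 and 3.47 FPKM in control and at 4.90, 3.997 and 4.68 FPKM in knockout samples. Its groups did not overlap either, and with a change of 0.30 ± 0.10 it missed the threshold (limma adjusted p = 0.0525, and 0.0329 once knockout 2 was left out).

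Of the relatives of the uncoupling proteins, Slc25a30 fell. It was at 13.4, 13.0 and 13.4 FPKM in controls 1, 2 and 3 and at 9.50, 8.66 and 6.80 FPKM in knockouts 1, 2 and 3, a fall of 0.66 ± 0.12 (SE, limma adjusted p = 0.00788). Slc25a14 was at 2.76, 2.70 and 2.57 FPKM in control and at 2.42, 2.58 and 1.94 FPKM in knockout samples, and Slc25a27 at 1.52, 1.39 and 1.21 and at 2.08, 1.66 and 1.39 FPKM. The groups of both overlapped, with limma adjusted p of 0.254 and 0.252. Ucp2, a form abundant in macrophages, was at 331, 337 and 342 FPKM in control and at 225, 192 and 97.3 FPKM in knockout samples. It fell by 1.06 ± 0.30 (SE, limma adjusted p = 0.0278, or 0.0700, 0.0839 and 0.0825 without control 1, 2 or 3). Ucp2 was lowest in knockout 3, the sample with the lowest macrophage sum (900.2 FPKM), and a link between these values was not tested. Knockout 3 also lay farthest from the control mean in 22 of the 23 called carriers, in either direction. Ucp3, the form of skeletal muscle and brown fat, was at 6.26, 3.40 and 3.06 FPKM in control and at 9.81, 14.3 and 18.7 FPKM in knockout samples, a rise of 1.65 ± 0.31 (SE, limma adjusted p = 0.00815). Of 5 muscle markers 3 were measured, and Acta1 rose, from 6.37 to 8.90 FPKM in control to 15.1 to 20.6 FPKM in knockout samples. Mylpf and Tnnt3 were not called (limma adjusted p = 0.578 and 0.651), and Ckm and Myh4 were at or under 0.024 FPKM. Mtch2, a carrier homolog of the outer membrane, rose by 0.59 ± 0.12 (SE, limma adjusted p = 0.00905), and Mtch1 was not called (limma adjusted p = 0.224).

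Among the 9 genes whose cargo was not assigned here, 7 were measured, and 1 rose and 2 fell. Those are 14.3% and 28.6%, beside 21.9% and 21.6% of all genes tested. Slc25a35 (ENSMUSG00000018740, chromosome 11, 68968131 to 68974365, plus strand) was at 2.15, 1.75 and 1.69 FPKM in controls 1, 2 and 3 and at 4.61, 4.91 and 8.54 FPKM in knockouts 1, 2 and 3. It rose by 1.42 ± 0.23 (SE, limma adjusted p = 0.00569), and by 1.16 without knockout 3. In the annotation 31.3% of its exonic bases overlap exons of Rangrf on the other strand, and the strand setting of the counting is not given in the sources used here. Rangrf itself was at or under 0.0397 FPKM in control and at 0.101 to 0.246 FPKM in knockout samples. That level does not show how reads of the overlap were assigned. Slc25a45 was at 13.0, 15.4 and 13.4 FPKM in control and at 9.04, 8.06 and 6.43 FPKM in knockout samples, a fall of 0.80 ± 0.13 (SE, limma adjusted p = 0.00624). Slc25a43, on chromosome X, was at 4.69, 4.63 and 3.56 FPKM in control and at 2.13, 2.18 and 0.832 FPKM in knockout samples. It fell by 1.18 ± 0.28 (SE, limma adjusted p = 0.0174, or 0.0558 and 0.0661 without control 1 or 2), and by 0.84 without knockout 3. The groups of all 3 genes were apart. Slc25a46, an outer membrane protein of mitochondrial shape, was at 11.3, 10.7 and 11.5 FPKM in control and at 11.6, 12.7 and 13.7 FPKM in knockout samples and was not called (limma adjusted p = 0.135). Slc25a34, Slc25a47 and Slc25a53 lay between 0.411 and 1.54 FPKM and were not called, except that Slc25a47 had an adjusted p of 0.0399 without control 3. No read was assigned to Slc25a54, which allows up to 0.0585 to 0.0710 FPKM, and the pseudogene Slc25a5-ps had 1 read in 1 sample.

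**Figure D3:**
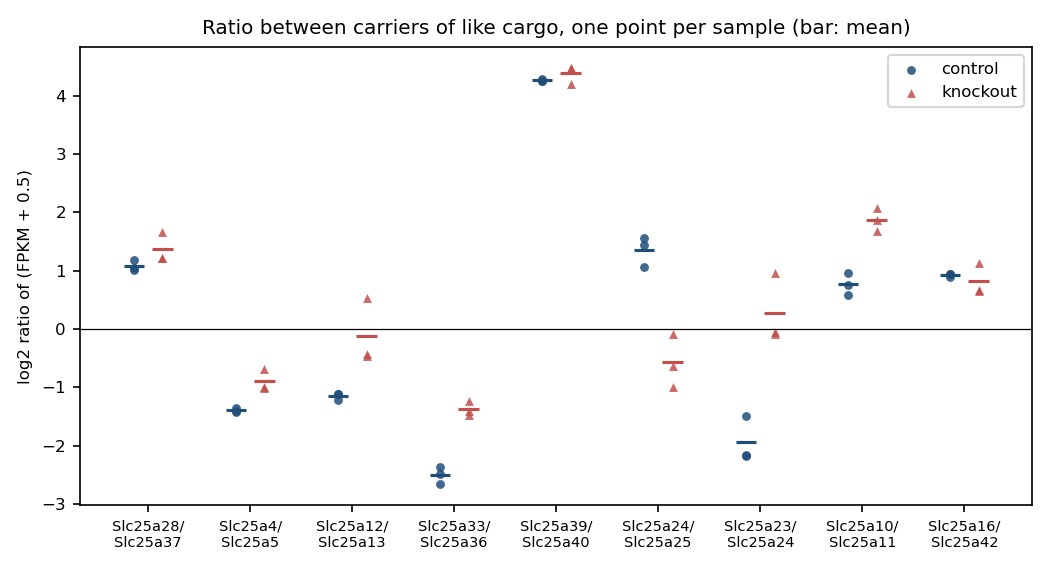
Log2 ratio between 2 carriers of like cargo in each sample (control in blue, knockout in red, bars for the means of 3 samples). The groups are apart in 7 of 9 pairs, the exceptions being Slc25a39/Slc25a40 and Slc25a16/Slc25a42.

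To compare carriers of like cargo within a sample, 9 pairs were taken as log2 ratios of FPKM + 0.5, where the added 0.5 draws the ratios of low genes such as Slc25a33 toward 0. Whether a ratio lies above or below 0 also depends on the deposited gene lengths. The groups did not overlap in 7 pairs, each with an exact two-sided permutation p of 0.1, the smallest that 3 against 3 samples can give (0.129 adjusted over the 9 pairs), so that no pair could pass 0.05. The ratio of Slc25a23 to Slc25a24 went from −1.94 ± 0.39 to 0.27 ± 0.59 (SD, n = 3 each), the largest shift of the 9. The ratio of Slc25a24 to Slc25a25 went from 1.36 ± 0.26 to −0.57 ± 0.46, that of Slc25a33 to Slc25a36 from −2.50 ± 0.14 to −1.37 ± 0.12, and that of Slc25a10 to Slc25a11 from 0.77 ± 0.19 to 1.87 ± 0.20. Slc25a12 relative to Slc25a13 went from −1.14 ± 0.06 to −0.12 ± 0.57, and only in knockout 3, at 0.53, did aralar exceed citrin. For the ADP/ATP carriers the ratio of Slc25a4 to Slc25a5 went from −1.40 ± 0.03 to −0.90 ± 0.19, and for the mitoferrins that of Slc25a28 to Slc25a37 from 1.08 ± 0.09 to 1.37 ± 0.26. Slc25a39/Slc25a40 and Slc25a16/Slc25a42 differed by 0.12 and −0.11, with groups that overlapped (exact permutation p = 0.4 for each).

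No change passed the test among genes that insert carriers in the inner membrane. New carrier proteins pass the receptor Tomm70a of the outer membrane, small chaperones between the membranes and the Timm22 complex. None of 10 such genes was called by limma, beside 43.5% of all genes tested. None had an unadjusted p under 0.05, and limma-voom on the recovered reads called none. The median was −0.05. Tomm22, the most abundant of them, was at 50.5, 58.1 and 54.0 FPKM in control and at 45.2, 50.6 and 46.1 FPKM in knockout samples (−0.20 ± 0.08, limma adjusted p = 0.1005). That no difference passed the test does not show that these levels were equal.

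Other routes for solutes through the mitochondrial membranes were mixed, with 6 of 13 genes higher and 2 lower (median 0.39). The shares over all genes tested were 21.9% and 21.6%. Of the 5 sideroflexins 4 rose and 1 fell. Sfxn5 and Sfxn2 rose by 0.64 ± 0.10 and 0.39 ± 0.07 (SE, limma adjusted p = 0.00485 and 0.00704), whereas Sfxn3, the most abundant of them in control tissue, fell by 0.75 ± 0.15 (SE, limma adjusted p = 0.0104). Sfxn4 rose by 0.66, and Sfxn1 by 0.79 (limma adjusted p = 0.0117 and 0.0267), the latter with an adjusted p of 0.0545, 0.0818 and 0.0882 without control 1, 2 or 3. Vdac2, a pore of the outer membrane, went from a mean of 117 ± 5.71 to one of 79.1 ± 2.81 FPKM (SD, n = 3 each) and fell by 0.56 ± 0.08 (SE, limma adjusted p = 0.00416). Its sister pore Vdac3 was not called (−0.03, limma adjusted p = 0.771). Of 9 regulators of mitochondrial and lipid genes 7 were measured and 1 rose, beside 21.9% of all genes tested. That gene was Pparg, the master regulator of adipocytes, at 43.1, 36.1 and 32.9 FPKM in control and at 61.3, 57.6 and 93.0 FPKM in knockout samples (0.89 ± 0.20, limma adjusted p = 0.0132, or 0.0536 and 0.0539 without control 2 or 3). The factors Nrf1, Gabpa, Tfam, Esrra and Ppargc1b were not called, with changes between −0.18 and −0.01. Ppara was not called either, with a change of 0.86 ± 0.33 (SE, limma adjusted p = 0.0726). It was at 0.954, 0.495 and 0.298 FPKM in control and at 0.736, 1.92 and 1.81 FPKM in knockout samples. Ppargc1a was at 0.184 to 0.366 FPKM in control and at 0.447 to 0.680 FPKM in knockout samples. Esrrg was at 0.126 to 0.172 and at 0.295 to 0.395 FPKM, and both genes count as not measured.

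**Figure D4:**
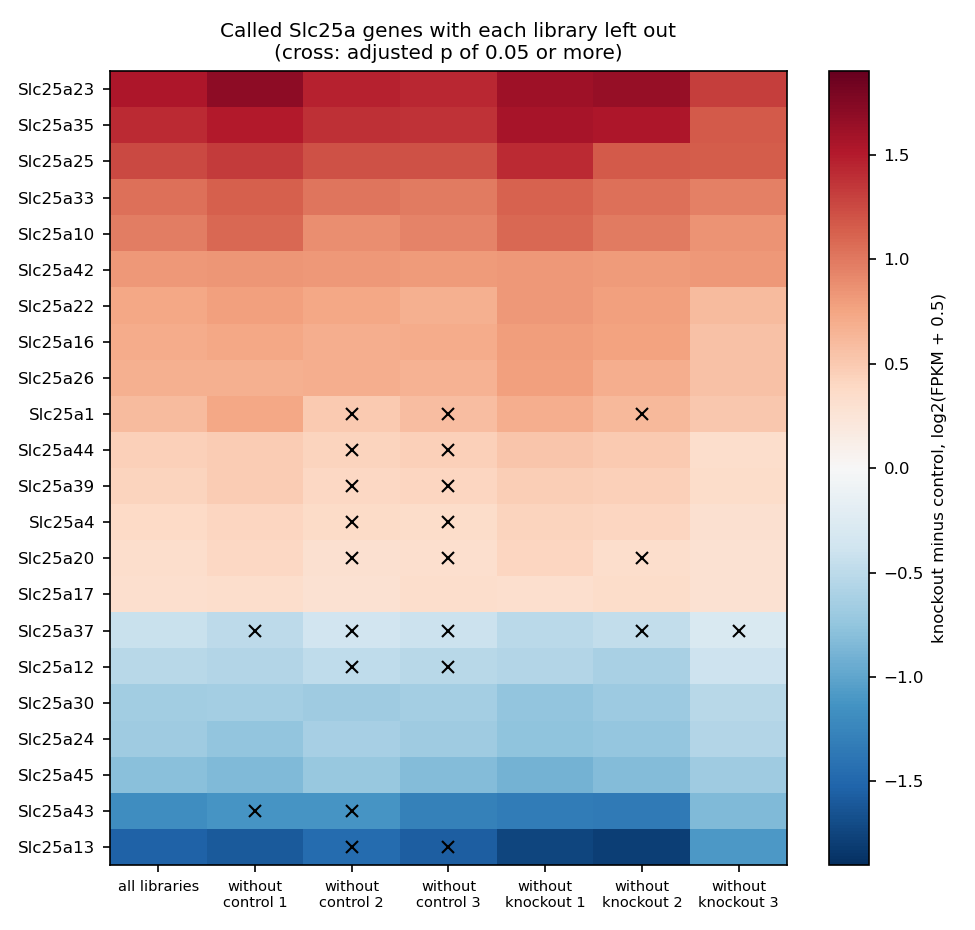
Log2 fold change (colour) of 22 of the called carriers with all libraries and with each library left out in turn; a cross marks a limma adjusted p of 0.05 or more. Every carrier drawn keeps its direction in each of these fits, and 13 keep their call in all 6, while Slc25a37 loses it in 5.

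Leaving out each library in turn kept the direction of all 23 called carriers. Of them 14 stayed under an adjusted p of 0.05 in all 6 of these fits: 11 that rose (among them Slc25a23, Slc25a35, Slc25a25, Slc25a33, Slc25a10, Slc25a42, Slc25a22, Slc25a16, Slc25a26 and Slc25a17) and 3 that fell (Slc25a45, Slc25a24 and Slc25a30). The carriers of citrate, ADP/ATP, acylcarnitine, glutathione, branched-chain amino acids and aspartate lost their call without control 2 and again without control 3, and Slc25a43 lost it without control 1 or 2.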

How the data were processed

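Total RNA of 6 samples (3 control, 3 knockout), taken up in Trizol, was sequenced from NEBNext Ultra libraries per the labels' protocols. The submitters' processing notes name CASAVA, FastQC, STAR 2.5, HTSeq 0.6.1 and mm10; the sources used here do not give the strand setting, the annotation release or any filter. The authors deposited FPKM per gene, per the file headers, with the gene length in bases (another quantity, used as deposited). In each sample the product of FPKM and kilobases added up to 1000000, which makes the values relative to reads assigned to genes. All values above 0 were whole multiples of 1 read within 0.01 of a read (100%), which gave back the reads; 25252839 to 30650624 per sample. Counting limits cover counting error only.

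The 14383 genes that reached 0.5 FPKM in at least 3 samples were fitted as log2(FPKM + 0.5) in limma 3.58.1 (statmod 1.5.0, under R 4.3.3), using 1 genotype coefficient, trend and robust moderation, two-sided, Benjamini-Hochberg adjusted over all of them. Fold changes on this scale understate those of low genes. Replicates differed by more than counting noise (chi-square per degree of freedom 15.5 to 98.1); whether samples came from different animals is not in the labels, and p-values refer to the spread among the samples, which may be technical. Carriers and lists were chosen with earlier results of these data known. Named were the mitoferrins, up to 4 most abundant members per cargo class, called members changed by 1 or more, and up to 3 called partners per list (the most abundant where none was called); members outside this rule (such as Slc25a12, Slc25a42 and Slc25a26, and those not called) were described to account for the family, and partners outside it (Acly, Cpt1b, Mdh2, Got1, Got2, Mtch1, Vdac3, Sfxn1, Sfxn3, Sfxn4, Ftmt and the regulators besides Pparg) were named after their values were seen. Some named results are not reported here, in text or figures. Of the partner entries Mcart1 and Mcart6 were not found, being older names of the members Slc25a51 and Slc25a53. Exon overlap and shared 50-base words came from GENCODE M21, and all 48 identifiers were found there. The fit was run on simulated reads with known changes in some genes and the same spread for all. That simulation had no sample that stood apart, as knockout 3 did, so it does not show how reliable the calls are here. Alternatives were pseudocounts of 0.1 and 1, a filter at 1 FPKM, no filter, each library left out, a replicate block, limma-voom on recovered reads, median-of-ratios scaling and, added after seeing the data, leaving out knockout 3 with control 2. Python 3.11.15 and matplotlib 3.10.9 were used for tables and figures.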

Additional observations from a re-analysis of the deposited data

How the results depend on the processing

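Among all genes tested, calls numbered 6253, and 3336 to 5861 with 1 library left out. The number of carriers lower, 7, ranged from 3 to 7 in those fits and the number higher, 16, from 11 to 17. Both pseudocounts, limma-voom and median-of-ratios scaling gave 16 higher and 7 lower, the filter at 1 FPKM gave 17 and 7, no filter 16 and 6, and leaving out knockout 3 together with control 2 gave 14 and 5. All 23 called carriers kept their direction in every one of these fits. Near 0, the Slc25a53 log2 fold change ran from −0.13 to 0.03 with 1 library left out (0.014 without control 2, 0.015 without knockout 2 and 0.034 without knockout 3) and 0.076 with both named libraries left out, against −0.03 with all. The Slc25a3 log2 fold change ran from −0.038 (without knockout 3) to 0.035 (without knockout 2), with −0.02 without control 3, and −0.017 with both left out, against 0.0024 with all. The cause was not tested. With the replicate number as a block, 13 carriers were higher and 6 lower (4581 genes called), and Slc25a1, Slc25a20, Slc25a37 and Slc25a4 were not called. For samples of the same number, deviations from the group means correlated at −0.237, 0.030 and −0.179 across genes, and 0 of 6 samples correlated best with their own number. Deviations from means of 3 samples cannot show whether such samples shared anything besides the number. Depth limits Slc25a18, Slc25a34 and Slc25a47, which had as few as 16, 32 and 21 reads in a sample, and also the called Slc25a43, with as few as 27.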
